A study of Mus musculus with 4 samples.

Results

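The glucuronosyltransferase (Ugt) and cytosolic sulfotransferase (Sult) genes were described in single-cell RNA from mouse livers that develop hepatocellular carcinoma (HCC). The members were all genes whose symbol begins with Ugt1, Ugt2, Ugt3 or Ugt8 and a letter, or with Sult and a digit: 43 of the 31053 genes of the count matrix, 22 Ugt and 21 Sult genes. Of these, 39 had at least 1 unique molecular identifier (UMI, a tag that counts RNA molecules) in the analysed cells, and 27 had at least 100 UMIs (14 Ugt and 13 Sult). The series holds 1 sample each of a normal liver called HCC-NL at week 0, a tumor called HCC-ES at week 4, a tumor called HCC-MS at week 8 and a tumor called HCC-LS, for which its own label gives week 10 and the series text week 12. The model is given only as gene-induced, and the labels give no inducing gene, strain, sex, age or number of animals. Digested tissue was passed through a mesh, red cells were lysed, and single cells entered a 10x Genomics 3′ kit. The cells of all samples stand in 1 matrix, in which barcode suffixes 1 to 4 mark 4 libraries. Which suffix belongs to which sample is not stated in any label or file header read here. The matrix was therefore 1 pooled sample: no library was given a week, tumor was not compared with normal liver, and no test was possible. All intervals are 95% intervals for counting error, not for animals.

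Glucuronidation and sulfation are the main conjugation reactions by which hepatocytes make steroids, bile acids, bilirubin, thyroid hormone and drugs soluble for excretion. Ugt enzymes sit in the endoplasmic reticulum and transfer a sugar, usually glucuronic acid from UDP-glucuronic acid. Sult enzymes are cytosolic and transfer sulfate from the donor PAPS. Many genes of both families are controlled by nuclear receptors and by liver factors such as HNF1 and HNF4, and several Sult genes are known to differ between the sexes in mouse liver.

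The 4 libraries held 8584, 7970, 9788 and 8441 analysed cells with medians of 1287, 3369, 1309.5 and 2597 UMIs, from 15593960, 49975828, 24012736 and 40617071 deposited UMIs. Libraries 2 and 4 were thus the deeper ones. Of the barcode sequences of analysed cells, 585 occurred in more than 1 library. Clustering without the members gave 14 classes named from marker genes, written as X-like. Hepatocyte-like cells were 20378 of 34783 cells (3697, 4461, 6469 and 5751 in libraries 1 to 4), in 9 clusters in which 11 or 12 of the 12 hepatocyte markers were detected. Levels are counts per 1000000 UMIs of the group (CPM), and a gene was called higher or lower where the ratio of CPM was at least 2-fold, its interval excluded 1 and both sides together held at least 100 UMIs.

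Some members cannot be told apart by a 3′ count. The Ugt1a genes are alternative first exons joined to the same last exons. In the GENCODE vM21 transcripts, every 50-base window in the last 400 bases of Ugt1a1, Ugt1a5, Ugt1a6a, Ugt1a6b and Ugt1a9 was shared with another gene, so how counts were split among these 5 genes is uncertain. The longest Ugt1a7c transcript ends elsewhere and shared none. However, all windows of Ugt1a10 also occurred in a Ugt1a7c transcript, so Ugt1a7c counts can carry the same uncertainty. Among sulfotransferases, Sult2a2 shared 66.1% of its windows, Sult2a5 52.1%, Sult2a6 19.1%, Sult2a1 16.8%, Sult5a1 10.3% and Sult2a3 4.27%. Ugt2b5 shared 0.57%, and the longest transcripts of 15 of the 27 genes, Ugt1a7c among them, shared none.

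Of the 12 detected members under 100 UMIs, Ugt1a2, Ugt1a8, Ugt1a10, Ugt2b37, Ugt2b38, Ugt8a, Sult2a4, Sult2b1, Sult3a1, Sult4a1, Sult6b1 and Sult6b2, totals ran between 1 and 93 UMIs. Ugt8a, which makes the galactosylceramide of myelin, had 34 UMIs and 0 of them in hepatocyte-like cells. Sult2b1, which sulfates cholesterol, had 30 UMIs in hepatocyte-like cells and 63 in the other classes. Ugt2a1, Ugt2a2, Sult1c1 and Sult3a2 had 0 UMIs in the analysed cells.

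Hepatocyte-like cells carried most of the expression of both families. They held 118914 of 128232 member UMIs (92.7%), with 72.4% of all UMIs. Of the 27 members with 100 UMIs, 26 were at least 2-fold higher in hepatocyte-like cells than in all other classes summed, where 15.8% of all genes tested were called higher. Ugt1a7c was called lower, as were 37.6% of genes. The median log2 ratio was 2.22 over the members and -0.52 over all genes compared. In 24 members the ratio was above 1 in each library that could be read, and without any 1 library the count of higher members was 25 or 26.

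Among sulfotransferases, Sult1a1, which sulfates phenols, had 552 CPM in hepatocyte-like cells and 93.9 CPM in the other classes, a ratio of 5.88 (5.67 to 6.10). Sult1d1, a catecholamine sulfotransferase in mouse, had 136 and 24.7 CPM. Sult2a8, a bile acid sulfotransferase in mouse, had 123 and 19.6 CPM. These ratios lay close together: across the 13 Sult genes they ran between 3.36 for Sult2a5 and 13.6 for Sult2a7, whose lower level rests on 5 UMIs in the other classes. Among glucuronosyltransferases, Ugt2b36 had 82.2 CPM in hepatocyte-like cells and 17.5 CPM elsewhere. Ugt1a1, the bilirubin enzyme, had 44.4 and 16.3 CPM, a ratio of 2.72 (2.49 to 2.98). The highest Ugt ratio was 6.40 (5.42 to 7.62) for Ugt2a3, which glucuronidates bile acids in human.

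**Figure D1:**
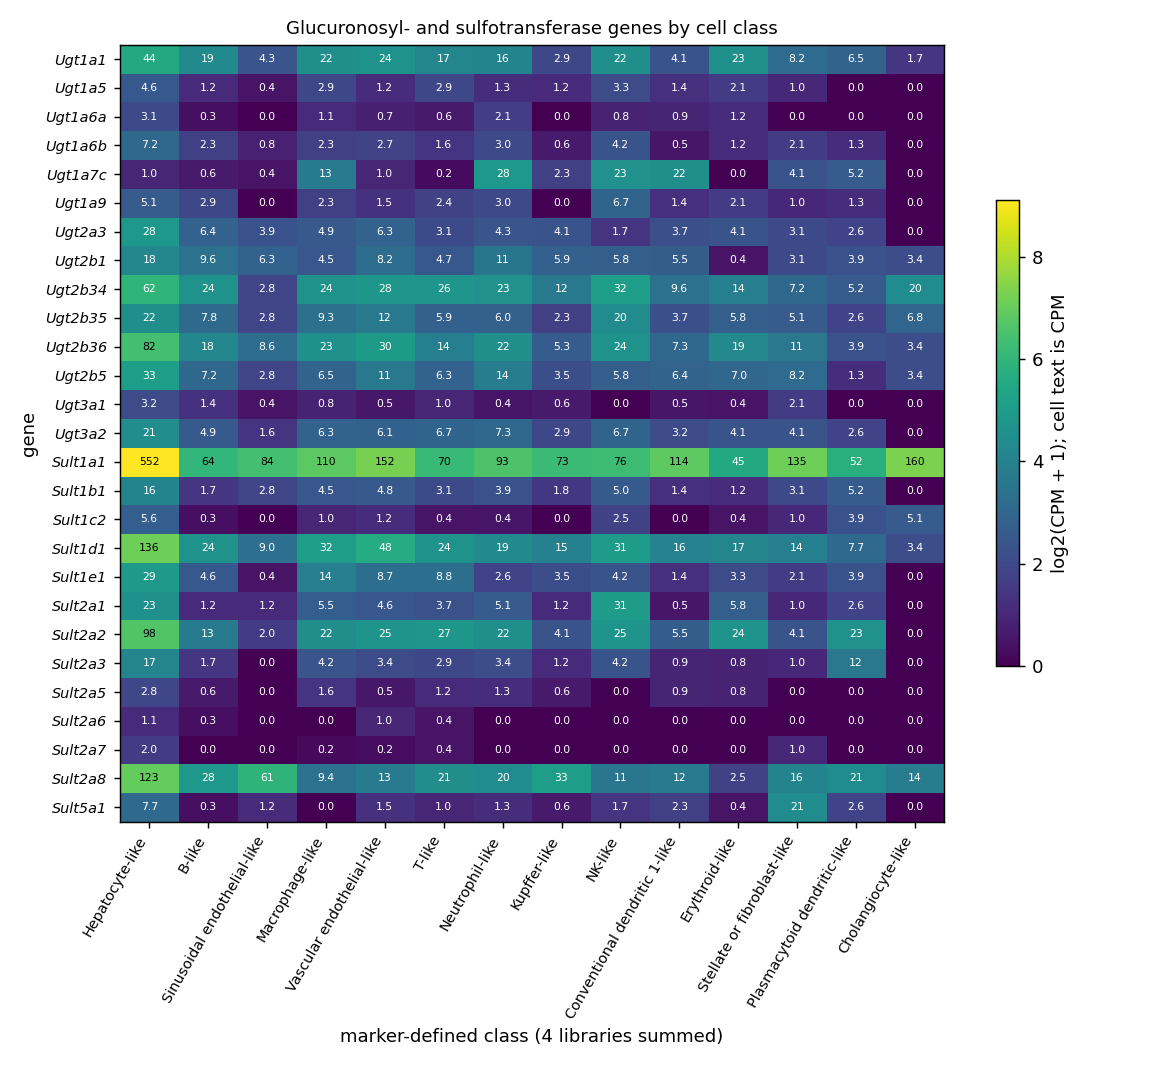
CPM of the 27 members with at least 100 UMIs (one line each) in 14 marker-defined classes, the libraries summed; colour is log2(CPM + 1) and the printed number is CPM. The hepatocyte-like column is highest for 23 members, while Ugt1a7c is 0.987 CPM in hepatocyte-like and 28.3 CPM in neutrophil-like cells.

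Taking single classes, 23 of the 27 members had their highest level in hepatocyte-like cells. Ugt1a7c ran the other way, with counts that can carry the uncertainty of the shared 3′ end. It had 87 UMIs (0.987 CPM) in hepatocyte-like cells, against 66 UMIs (28.3 CPM) in neutrophil-like, 28 (23.3 CPM) in NK-like, 49 (22.4 CPM) in conventional dendritic 1-like and 77 (12.5 CPM) in macrophage-like cells. T-like and B-like cells of the same libraries had 1 and 2 UMIs. Its level was 0.144, 1.24, 0.713 and 1.04 CPM in hepatocyte-like cells of libraries 1 to 4, against 16.7, 10.8, 37.7 and 37.0 CPM in neutrophil-like cells, so the order was the same in each library.

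Sult5a1, whose substrates are poorly known, had 20.5 CPM in stellate or fibroblast-like cells (20 UMIs) against 7.66 CPM in the hepatocyte-like class, 2.68 times as much (1.63 to 4.17). In stellate or fibroblast-like cells it had 3, 0, 14 and 3 UMIs in libraries 1 to 4. Library 1 had the opposite order, at 8.65 CPM in stellate or fibroblast-like and 26.1 CPM in hepatocyte-like cells. For Sult2a1 and Ugt1a9 the highest level was in NK-like cells, at 30.8 and 6.66 CPM, and both intervals of the ratio to hepatocyte-like cells (0.946 to 1.86 and 0.564 to 2.61) include 1. In library 3, Sult2a1 was lower in hepatocyte-like cells than in the other classes, with 21 and 25 UMIs (1.25 and 4.20 CPM).

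RNA released from hepatocytes can give UMIs in other cells. In T-like cells the median level of 10 secreted or abundant hepatocyte transcripts (Alb, Apoa1 and others) was 10.8%, 31.7%, 12.9% and 23.97% of the hepatocyte-like level in libraries 1 to 4, and in B-like cells 8.9%, 36.4%, 11.3% and 34.4%. In T-like cells, 0, 10, 9 and 5 of the 27 members lay above the range of that list. In library 1, 24 of 27 lay below it, and in libraries 2 to 4 between 7 and 10 did. Most member levels in T-like cells were therefore at or under the background that these transcripts give, and its part in the class differences was not tested.

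The other genes of both pathways, from a list of 21 of which 19 were in the matrix, were less uniform: 12 were higher in hepatocyte-like cells and 3 lower. Ugdh, which makes UDP-glucuronic acid, had 232 CPM in hepatocyte-like and 58.8 CPM in other classes. Papss2, which makes PAPS, had 68.9 and 20.2 CPM. The receptors Nr1i3 (CAR) and Nr1i2 (PXR), which induce Ugt and Sult genes, had 64.8 and 28.9 CPM in hepatocyte-like cells, against 11.5 and 6.46 CPM elsewhere. Gusb, the β-glucuronidase that removes glucuronic acid, was lower, at 11.4 CPM in hepatocyte-like and 51.6 CPM in other classes, as were Slc35b3, a Golgi PAPS transporter, and Nfe2l2, the stress-response factor NRF2.

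Within hepatocyte-like cells several Sult2a genes differed between libraries by more than 10-fold. They encode hydroxysteroid sulfotransferases, which act on dehydroepiandrosterone and bile acids. Sult2a3 had 0, 1204, 0 and 255 UMIs in libraries 1 to 4 (0, 35.7, 0 and 8.32 CPM). Sult2a2 had 0.433, 186, 2.50 and 76.2 CPM, and Sult2a1 had 0, 44.0, 1.25 and 16.6 CPM. All 3 genes were high in libraries 2 and 4 and near or at 0 in libraries 1 and 3. Taking 3 UMIs as the limit that a count of 0 allows, Sult2a3 was at least 82.4-fold higher in library 2 than in library 1 and at least 46.7-fold higher in library 4 than in library 3. Between libraries 4 and 2 it was lower in library 4, with a ratio of 0.233 (0.203 to 0.267). Sult2a5 followed with 0, 4.45, 0.357 and 2.97 CPM, and Sult2a6 with 0, 1.96, 0.119 and 0.946 CPM.

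Sult1e1, the estrogen sulfotransferase, was high in 1 library. It had 2, 2444, 17 and 99 UMIs, or 0.289, 72.4, 1.01 and 3.23 CPM in libraries 1 to 4. Library 2 stood above every other library, and library 4 was 22.4-fold lower than library 2 (ratio 0.0446, 0.0361 to 0.0545).

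Sult2a8 ran the other way. It had 5187, 246, 4366 and 1008 UMIs in hepatocyte-like cells of libraries 1 to 4, or 749, 7.29, 259 and 32.9 CPM. Library 2 was 103-fold below library 1, and library 4 was 7.89-fold below library 3. Thinned to 1000 UMIs per cell, 48.1%, 0.801%, 22.9% and 3.50% of hepatocyte-like cells had a Sult2a8 UMI (unthinned 63.7%, 5.09%, 34.9% and 13.3%; 721, 341, 2400 and 687 shallower cells were left out). In T-like cells thinned the same way, the shares were 2.84%, 0.351%, 3.27% and 0.543%, and in B-like cells 5.83%, 0.813%, 2.40% and 0 of 420 cells, which allows up to 0.714%. In library 2 these shares rest on 33 hepatocyte-like, 2 T-like and 2 B-like cells. Their exact Clopper-Pearson intervals (0.552% to 1.12%, 0.0425% to 1.26% and 0.0986% to 2.91%) overlap, so these thinned shares alone cannot separate the classes there. With all UMIs summed, the log2 ratio of Sult2a8 in hepatocyte-like cells over the other classes was at least 1.67 in each library. Sult5a1 was also higher in libraries 1 and 3 than in libraries 2 and 4, with 26.1, 0.593, 27.2 and 0.555 CPM.

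The start regions of Sult2a3, Sult1e1 and Sult2a8 are shown because their levels took opposite orders in the libraries. Each is 250 bases before to 50 after a RefSeq start (GRCm38.p6, all on the minus strand): chr7:14122999-14123298 for Sult2a3, chr5:87591562-87591861 for Sult1e1, and chr7:14446538-14446837 and chr7:14438502-14438801 for starts 1 and 2 of Sult2a8. Capitals mark matches to AGGTCA, a nuclear receptor half-site, GTTAAT, an HNF1 half-site, or TTCNNNGAA, a STAT5 motif, on either strand. No matches overlap.
Sult2a3: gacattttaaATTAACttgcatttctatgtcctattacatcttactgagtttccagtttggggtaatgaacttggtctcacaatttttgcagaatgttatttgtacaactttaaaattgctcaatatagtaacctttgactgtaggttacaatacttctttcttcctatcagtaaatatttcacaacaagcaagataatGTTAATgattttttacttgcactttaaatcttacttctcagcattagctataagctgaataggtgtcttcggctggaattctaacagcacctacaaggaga
Sult1e1: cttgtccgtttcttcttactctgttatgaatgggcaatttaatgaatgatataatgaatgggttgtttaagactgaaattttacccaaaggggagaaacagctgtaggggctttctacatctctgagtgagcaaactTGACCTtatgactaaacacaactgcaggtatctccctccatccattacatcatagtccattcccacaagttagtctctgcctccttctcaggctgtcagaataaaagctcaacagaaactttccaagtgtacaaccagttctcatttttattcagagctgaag
Sult2a8 start 1: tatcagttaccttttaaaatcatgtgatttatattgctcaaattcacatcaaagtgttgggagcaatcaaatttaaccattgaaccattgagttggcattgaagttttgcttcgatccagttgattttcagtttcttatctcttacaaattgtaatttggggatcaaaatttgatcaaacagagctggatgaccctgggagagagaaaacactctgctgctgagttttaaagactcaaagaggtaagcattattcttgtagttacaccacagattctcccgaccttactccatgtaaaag
Sult2a8 start 2: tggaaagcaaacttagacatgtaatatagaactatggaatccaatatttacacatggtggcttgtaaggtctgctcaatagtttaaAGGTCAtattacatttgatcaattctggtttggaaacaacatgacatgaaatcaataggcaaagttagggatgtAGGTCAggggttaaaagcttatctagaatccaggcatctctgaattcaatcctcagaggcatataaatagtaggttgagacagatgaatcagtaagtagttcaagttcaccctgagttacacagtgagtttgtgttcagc

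The Sult2a3 region held the HNF1 half-site at -240 and -51 from the start, read on the minus and plus strand of the gene. The Sult1e1 region held the nuclear receptor half-site at -113, and start 2 of Sult2a8 held it at -164 and -90. Start 1 of Sult2a8 had none of the 3 motifs. Of 32851 promoters of the same length, 16.3% held AGGTCA, 7.10% GTTAAT and 8.30% TTCNNNGAA. Of the 37 members with a promoter sequence (40 promoters), 10, 13 and 2 held them. A match describes the sequence, and whether it is used was not measured.

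**Figure D2:**
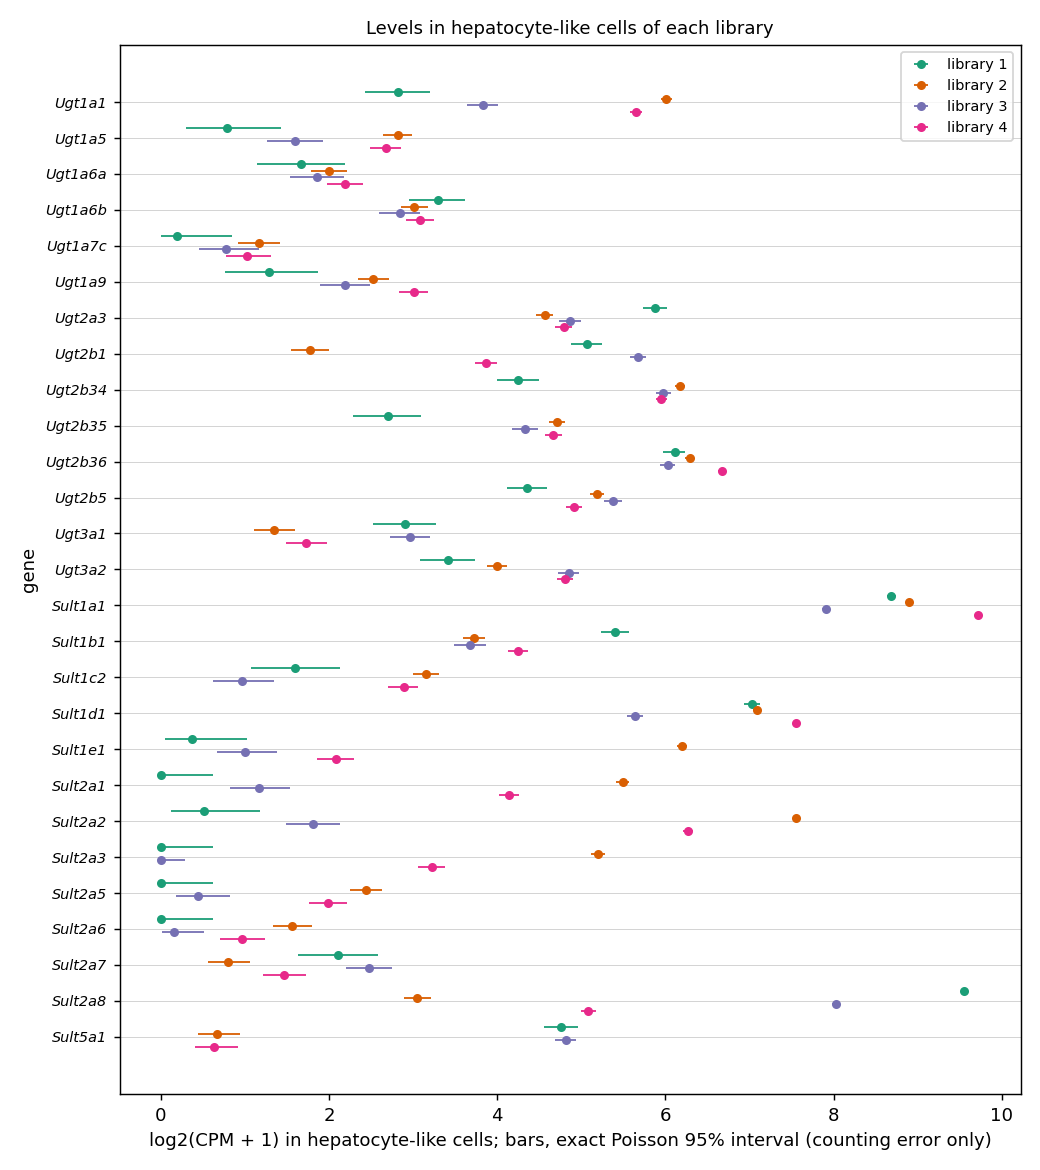
Level of each of the 27 members in hepatocyte-like cells of libraries 1 to 4, as log2(CPM + 1) with exact Poisson 95% intervals. Sult2a1, Sult2a2 and Sult2a3 lie to the right in libraries 2 and 4, Sult2a8 and Sult5a1 in libraries 1 and 3, and Ugt1a6a, Ugt1a6b and Ugt2b36 stay within 2-fold.

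The remaining sulfotransferases differed less. Sult1a1 had 411, 474, 239 and 841 CPM, and library 4 was 3.52-fold (3.41 to 3.64) above library 3. Sult1d1 had 129.5, 135, 48.9 and 187 CPM, with library 3 the lowest. Sult1b1, which sulfates thyroid hormone, had 41.3, 12.2, 11.8 and 18.01 CPM, with library 1 the highest. Sult1c2 had 2.02, 7.88, 0.951 and 6.40 CPM, and Sult2a7 had 3.32, 0.741, 4.58 and 1.76 CPM. Sult1c2 was thus higher in libraries 2 and 4, and Sult2a7 in libraries 1 and 3.

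Glucuronosyltransferases varied over a smaller range. Ugt1a1 had 6.06, 63.6, 13.2 and 49.1 CPM in libraries 1 to 4, so library 2 was 10.5-fold (7.73 to 14.6) above library 1. Ugt1a5 had 0.722, 6.05, 2.02 and 5.38 CPM and Ugt1a9 1.44, 4.77, 3.57 and 7.05 CPM. Both Ugt1a6 genes, which act on small planar phenols, stayed flat: Ugt1a6b had 8.81, 7.08, 6.18 and 7.51 CPM and Ugt1a6a 2.17, 2.99, 2.61 and 3.56 CPM. These Ugt1a values carry the uncertainty of the shared 3′ end.

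The Ugt2 genes, which conjugate steroids, bile acids and drugs, took several orders. Ugt2b34 had 18.05, 71.2, 62.0 and 60.8 CPM. Ugt2b35 had 5.49, 25.3, 19.1 and 24.4 CPM and Ugt2b5 had 19.5, 35.5, 40.5 and 29.1 CPM. Library 1 was thus the lowest for these 3 genes. Ugt2b1 had 32.5, 2.43, 49.97 and 13.6 CPM, and library 3 was 20.6-fold (16.4 to 26.1) above library 2. Ugt2a3 had 57.7, 22.6, 28.2 and 26.7 CPM, with library 1 the highest. Ugt2b36 was the steadiest of the group, at 68.0, 77.1, 64.2 and 101 CPM.

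Of the Ugt3 genes, Ugt3a1, which transfers N-acetylglucosamine in human, had 6.50, 1.54, 6.83 and 2.32 CPM. Ugt3a2, which uses UDP-glucose and UDP-xylose in human, had 9.67, 15.03, 27.8 and 27.1 CPM. The 2 genes thus had different orders.

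Over the 6 pairs of libraries, 22 of the 25 members with 100 UMIs in some pair were past 2-fold in at least 1 pair, and Ugt1a6a, Ugt1a6b and Ugt2b36 in none. The share of all genes past 2-fold in at least 1 pair was not computed, so the 22 cannot be set against it. Library 2 over library 1 gave 11 of 23 members higher and 5 lower, beside 46.0% and 6.03% of all genes. Library 3 over 1 gave 5 higher and 4 lower of 16 (11.1% and 2.49% of genes), and library 4 over 1 gave 12 and 6 of 23 (33.8% and 5.11%). Library 3 over 2 gave 5 higher and 9 lower of 25 (4.62% and 39.9%), library 4 over 2 gave 2 and 4 of 23 (1.35% and 10.9%), and library 4 over 3 gave 9 and 5 of 24 (22% and 4.42%). Higher calls made up a larger share of members than of all genes in 5 of the 6 pairs (about the same share for library 2 over 1), and lower calls did so in 5 of the 6 (not for library 3 over 2). All genes themselves shifted: the median log2 ratio of library 2 over 1 was 0.88 over all genes and 0.86 over members, and that of library 4 over 1 was 0.57 and 1.03.

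Both of libraries 2 and 4 were more than 2-fold above both of libraries 1 and 3 for 9 members: Sult1c2, Sult1e1, Sult2a1, Sult2a2, Sult2a3, Sult2a5, Sult2a6, Ugt1a1 and Ugt1a5, a pattern of 16.6% of all genes. The opposite pattern held for Sult2a8, Sult5a1, Ugt2b1 and Ugt3a1, and for 2.68% of all genes. The libraries shared their hepatocyte-like clusters only in part. Cluster 3 (leading genes Serpina1e and Elovl3) held 3633 of the 3697 hepatocyte-like cells of library 1, and clusters 4 and 11 (Saa1 and Sds) held 1834 and 3277 of the 6469 of library 3. Libraries 2 and 4 lay mainly in clusters 18, 19 and 20. A difference between libraries and one between these clusters cannot be told apart here, except in clusters that hold cells of both. Library 3 had 113 cells in cluster 3, where Sult2a8 had 522 CPM, against 755 CPM in library 1. It also had 90 cells in cluster 18. There Sult2a8, Sult2a2 and Sult1e1 had 52.0, 35.9 and 5.38 CPM (29, 20 and 3 UMIs) in library 3. The same 3 genes had 8.60, 378 and 129 CPM in library 2 and 35.5, 94.1 and 3.82 CPM in library 4.

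Libraries 4 and 2 shared clusters 18, 19, 20, 22 and 23, and there the differences could be read within a cluster. In cluster 18, Sult2a3 had 7.13 CPM in library 4 and 52.9 CPM in library 2, Sult1e1 had 3.82 and 129 CPM, and Sult2a8 had 35.5 and 8.60 CPM. In cluster 19, Sult2a3 had 9.26 CPM in library 4 and 30.4 CPM in library 2, Sult1e1 had 3.15 and 92.9 CPM, and Sult2a8 had 36.1 and 6.33 CPM. The same 3 directions held in cluster 20, so these differences between the libraries were also present among cells of 1 cluster. Of the members compared, 2 of 19 were higher and 4 lower in cluster 18, 3 and 4 of 18 in cluster 19, and 3 and 3 of 17 in cluster 20. In clusters 22 and 23, with fewer cells, 1 of 10 was higher and 0 lower, and 0 of 8 higher and 2 lower. The shares of all genes called within these clusters were not computed, so the member counts cannot be set against them. In cluster 23, Sult2a3 had 65.1 CPM in library 4 and 94.4 CPM in library 2, short of 2-fold. Ugt1a1 was past 2-fold in none of the 5 clusters, at 28.0 CPM in library 4 and 33.0 CPM in library 2 in cluster 18.

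The labels give no sex, so sex-linked genes are set beside these values. In hepatocyte-like cells the Y-linked Ddx3y had 30.3, 29.6, 23.1 and 35.9 CPM in libraries 1 to 4 and Eif2s3y had 37.7, 46.3, 29.5 and 32.5 CPM, while Xist had at most 0.0889 CPM. Of 6 male-biased liver genes, 5 were higher in both libraries 1 and 3 than in libraries 2 and 4, like Sult2a8: Elovl3 had 531, 1.45, 117 and 3.20 CPM and Hsd3b5 had 170, 0.385, 47.6 and 0.555 CPM. The male-biased Cyp2d9 was not, at 117, 70.3, 82.1 and 127 CPM. Some female-biased genes were highest in library 2, like Sult1e1 and Sult2a3: Cyp3a41a had 0, 7.38, 0 and 1.01 CPM and Cyp2a4 had 0, 2.76, 0.119 and 0.555 CPM. Y-linked transcripts were thus present in all libraries, while most of the named sex-biased genes differed between them. Their part in the Sult differences was not tested.

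**Figure D3:**
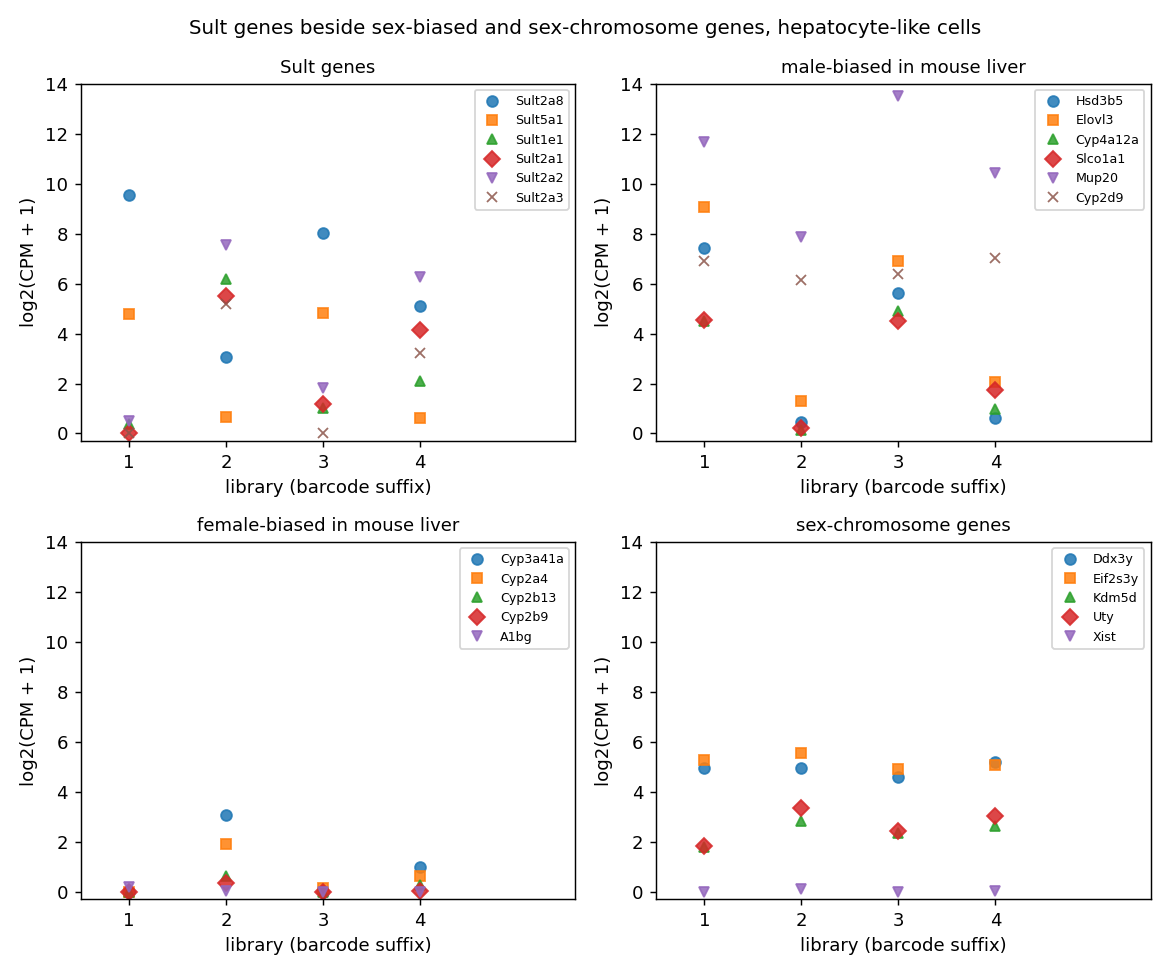
log2(CPM + 1) in hepatocyte-like cells of libraries 1 to 4 for 6 Sult genes and, in the other panels, for genes known as male-biased or female-biased in mouse liver and for sex-chromosome genes. Hsd3b5 and Elovl3 share the high libraries of Sult2a8 and Sult5a1 (1 and 3), and Ddx3y and Eif2s3y are of like height in all 4.

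Among the 9 hepatocyte-like clusters, 11 of the 14 Ugt genes and 0 of the 13 Sult genes had their highest level in cluster 22, where 50.1% of all genes tested also did. The 11 were Ugt1a1, Ugt1a5, Ugt1a6a, Ugt1a6b, Ugt1a7c, Ugt1a9, Ugt2b5, Ugt2b34, Ugt2b35, Ugt2b36 and Ugt3a2. Ugt2b34 had 430 CPM in cluster 22 and 112 CPM in cluster 20, the next, a ratio of 3.86 (3.60 to 4.13). Ugt1a1 had 287 CPM there and 77.2 CPM in cluster 19, and Ugt1a6a 29.5 CPM and 3.03 CPM in cluster 20. Cluster 22 held 578 cells (0, 330, 80 and 168 in libraries 1 to 4), its leading genes included the nuclear RNAs Neat1 and Kcnq1ot1 and Gm26917, and its median mitochondrial share was 10.4%, against 0 to 4.32% in the other hepatocyte-like clusters. The part of these features in the Ugt levels was not tested.

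Sult genes peaked elsewhere. Cluster 23, with cell cycle genes leading, had the highest level of 5 Sult genes (19.8% of all genes), among them Sult2a3 at 77.9 CPM and Sult2a1 at 77.6 CPM, against 22.02 and 33.7 CPM in cluster 18, the next. Sult2a5, Sult2a6 and Sult1c2 were the others, with ratios to the next cluster of 1.03, 1.19 and 1.19. Cluster 18 (leading genes Oat and Glul) led for Sult1a1 and Sult2a2 (8.52% of all genes). In the pooled libraries Sult1a1 had 1019 CPM there and 647 CPM in cluster 19, and the least, 163 CPM, in cluster 5. With all libraries pooled, cluster 19 led for Sult1d1 and Sult1e1 (2.55%), cluster 5 for Sult2a7 (2.28%), cluster 11 for Sult5a1 (4.42%) and cluster 4 for Ugt2b1 and Ugt3a1 (1.35%). Some of these orders differed within libraries. Sult1e1 had 129 CPM in cluster 18 and 92.9 CPM in cluster 19 of library 2, and 3.82 and 3.15 CPM in library 4. Ugt2b1 was highest in cluster 22 of each library that had it, at 7.70, 160 and 60.5 CPM in libraries 2 to 4, against 70.0 CPM in cluster 4 of library 3. Ugt3a1 also had its highest level in cluster 22 of libraries 2 and 4, at 7.70 and 13.4 CPM. In library 3, Sult2a7 had 44.0 CPM in cluster 3 (7 UMIs) and 6.99 CPM in cluster 5 (9 UMIs). Sult1a1 had 322 CPM in cluster 11 and 217 CPM in cluster 18 of library 3. In library 4 it had 1121 CPM in cluster 5 (26 cells, 42 UMIs) and 1079 CPM in cluster 18. Cluster 3 led for Sult2a8, Sult1b1 and Ugt2a3 (6.74%). Sult1b1 had 41.7 CPM in cluster 3 of library 1, but 0 UMIs in the 113 cells of library 3 there. Sult2a8 had 749 CPM in cluster 3 and 313 CPM in cluster 4, against 11.2 to 29.9 CPM in clusters 18, 19, 20, 22 and 23. Cluster 20, where Afp and Dlk1 led, had the highest level of no member (4.18% of all genes). The interval of the ratio to the next cluster includes 1 for Sult2a7 (0.550 to 2.81), Ugt2b1 (0.834 to 1.32) and Ugt3a1 (0.702 to 1.80). It also does for Sult1c2, Sult1d1, Sult2a2, Sult2a5, Sult2a6 and Ugt2a3, and for Ugt1a7c in cluster 22 (0.608 to 25.1), so these leads are not separated from the next cluster.

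**Figure D4:**
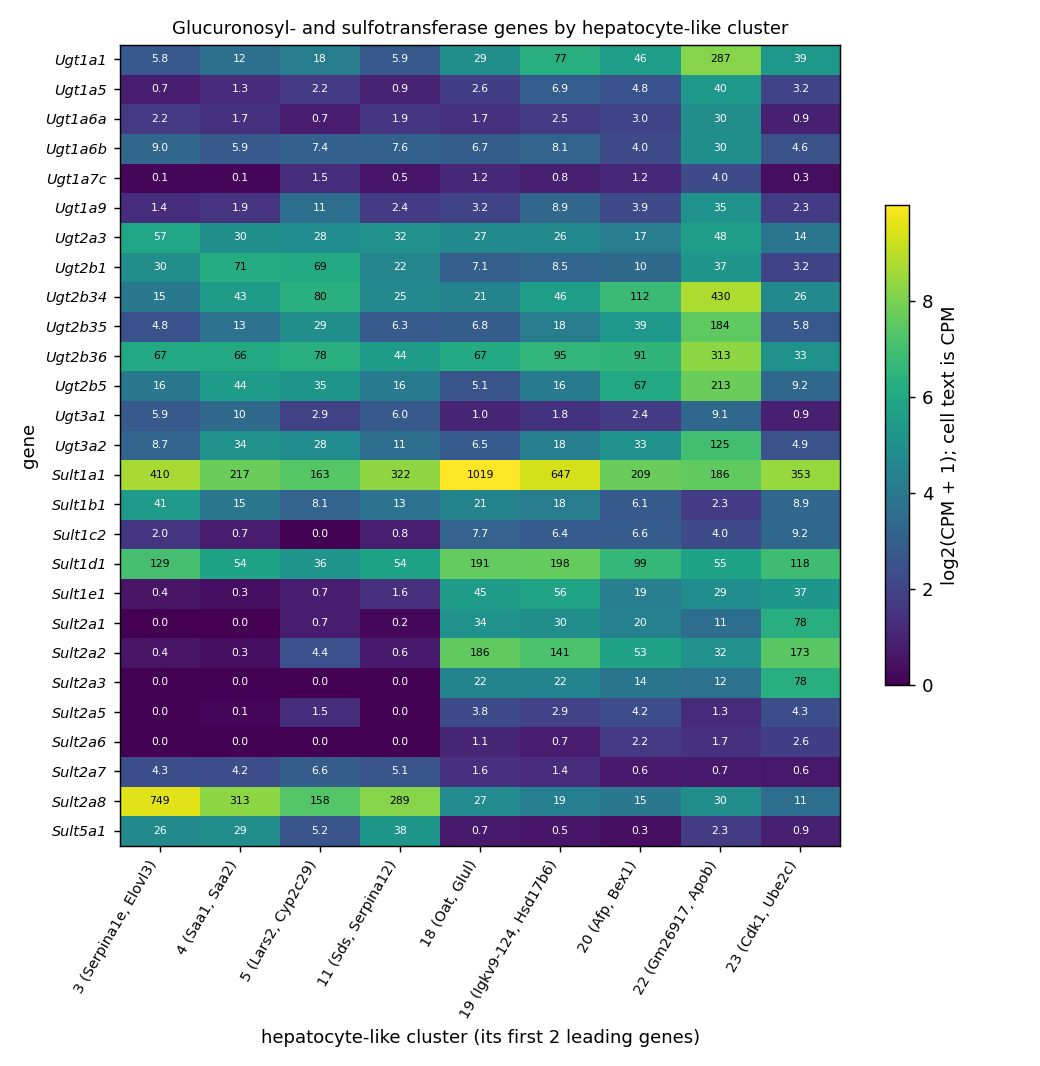
CPM of the 27 members in the 9 hepatocyte-like clusters, named by number and 2 leading genes; colour is log2(CPM + 1) and the printed number is CPM. Of the 14 Ugt genes, 11 are brightest in cluster 22 (Ugt2b34 at 430 CPM), and Sult2a8 is brightest in cluster 3 at 749 CPM.

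Position along the liver lobule was read from 10 pericentral and 10 periportal marker genes, and hepatocyte-like cells were ranked within each library. The upper and lower tercile held 5409 cells each; the terciles are ranges, not types, and 463, 953, 438 and 1723 cells lay within 0.25 log2 units of a cut in libraries 1 to 4. Of 25 members compared, Ugt3a2, Sult2a2 and Ugt2b1 were higher in the pericentral tercile (1.45% of all genes) and Sult5a1 and Sult2a3 lower (3.51%). The median log2 ratio was 0.39 over members and -0.07 over all genes. The terciles are relative to each library: the lower cut of the log2 score was 0.58 and 1.72 in libraries 2 and 4, above the upper cut of -0.58 and -0.26 in libraries 1 and 3. The periportal gene Sds had 197, 9.51, 323 and 1.04 CPM in libraries 1 to 4.

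Ugt3a2 had 32.8 CPM in the pericentral and 13.2 CPM in the periportal tercile, a ratio of 2.49 (2.22 to 2.80). Its log2 ratio was -0.24, 1.73, 1.07 and 1.26 in libraries 1 to 4, so library 1 did not share the direction. Sult2a2 had 139 CPM in the pericentral and 67.5 CPM in the periportal tercile, but in library 4 the levels were 79.6 and 77.0 CPM. Ugt2b1 had 23.4 and 11.7 CPM, with log2 ratios of 1.21, 0.65, 1.02 and 0.50. Without library 2 only Ugt3a2 of these 3 was called, with Sult2a2 at a log2 ratio of 0.06 and Ugt2b1 at 0.92, and without library 3 the number of higher members was 5.

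Sult5a1 was periportal in the libraries where it was abundant: it had 4.25 CPM in the pericentral and 51.9 CPM in the periportal tercile of library 1, and 5.51 and 43.1 CPM in library 3. Sult2a3 had 20.99 CPM in the pericentral and 46.1 CPM in the periportal tercile of library 2, and 1.22 and 17.3 CPM in library 4. Both were lower in the pericentral tercile wherever the terciles of a library together held at least 20 of their UMIs. In library 2, where Sult5a1 was rarer, it had the opposite order, with 12 pericentral and 2 periportal UMIs, a ratio of 8.09 (1.80 to 74.4). Sult1a1, at 683 CPM in the pericentral and 414 CPM in the periportal tercile, was not past 2-fold, and its log2 ratio was -0.17, 1.71, -1.06 and 0.47 in libraries 1 to 4. Sult2a8 was also not called in the sum, but it was higher in the pericentral tercile of each library. Its ratios were 2.25 (2.09 to 2.44), 2.34 (1.71 to 3.20), 1.12 (1.03 to 1.21) and 2.28 (1.93 to 2.70) in libraries 1 to 4. Of 27 members read in at least 2 libraries, 7 were higher in the pericentral tercile of each, 3 lower in each and 17 mixed.

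Hepatocyte-like cells with the fetal and tumor marker Afp were compared with those without it. After thinning to 1000 UMIs, 665 cells had an Afp UMI (3, 304, 57 and 301 in libraries 1 to 4) and 15564 had none, with 5870967 and 79231435 UMIs in all. Of 25 members, 0 were higher in Afp-detected cells (12.1% of all genes) and 9 lower (3.98%): Sult2a8, Sult2a3, Sult2a7, Sult1e1, Sult5a1, Ugt2b1, Ugt2a3, Ugt1a9 and Ugt3a1. The median log2 ratio was -0.55 over members and 0.24 over all genes. Library 1, where Sult2a8 was highest, gave almost no Afp-detected cells, so values within libraries are needed. Among 27 members read in at least 2 libraries, 3 were higher in Afp-detected cells of each library read, 9 lower in each and 15 mixed. The 3 were Ugt2b34, Sult2a1 and Sult1c2. Ugt2b34 was not called in the sum. Its ratio was 1.46 (1.30 to 1.63), 5.49 (4.19 to 7.08) and 1.87 (1.60 to 2.17) in libraries 2 to 4. The interval includes 1 for Sult2a1 in libraries 2 and 3 and for Sult1c2 in library 4.

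Sult2a3 had 7.65 CPM in Afp-detected and 39.1 CPM in Afp-undetected cells of library 2, and 0.535 and 8.88 CPM in library 4, where 1 UMI was in Afp-detected cells. It was lower in both. Ugt2a3 had 8.44 CPM in Afp-detected and 24.6 CPM in undetected cells of library 2, 9.75 and 27.2 CPM (2 and 405 UMIs) in library 3, and 21.9 and 26.9 CPM in library 4. Sult1e1 had 22.7 and 78.8 CPM in library 2. Sult2a3 and Ugt2a3 were lower in Afp-detected cells of each library read, and Sult1e1 was lower in libraries 2 and 4. However, the interval of the Ugt2a3 ratio includes 1 in libraries 3 and 4 (0.0433 to 1.31 and 0.580 to 1.12). That of Sult1e1 includes 1 in library 4 (0.0376 to 1.17). With cells thinned to 1000 UMIs, the summed log2 ratio of Sult1e1 was 0.34, the opposite direction to -1.05 without thinning.

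Sult2a8, by contrast, had 21.3 CPM in Afp-detected and 122 CPM in undetected cells of all libraries summed, with a different direction by library. It had 3.96 CPM in Afp-detected and 7.79 CPM in undetected cells of library 2, a ratio of 0.508 (0.280 to 0.855), and 122 and 258 CPM in library 3, a ratio of 0.473 (0.306 to 0.699). Library 4 had 42.8 and 32.1 CPM, a ratio of 1.33 (1.05 to 1.68). Ugt1a9 had 2.64 CPM in Afp-detected and 4.99 CPM in undetected cells of library 2, and 2.14 and 7.11 CPM in library 4, with 1 Afp-detected UMI in library 3. In the sum, Sult2a7 had 0 UMIs in Afp-detected cells and was at least 4.05-fold lower. Within libraries 2 to 4 its ratio intervals reach 1.24, 3.93 and 1.11, so each includes 1. Those of Ugt2b1, Sult5a1 and Ugt3a1 also include 1 in each of these libraries. Ugt1a1 differed in direction between libraries, with a log2 ratio of -1.17, 2.02 and 0.45 in libraries 2 to 4. Without library 2, 4 members were called lower in place of 9, and with the libraries weighted equally also 4.

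Cycling hepatocyte-like cells were those with at least 3 UMIs of 15 cell cycle genes after thinning, 701 cells (0, 444, 96 and 161 in libraries 1 to 4), set against 13610 cells with 0. Of 25 members, 2 were higher in cycling cells, Sult2a3 and Sult2a1 (19.8% of all genes), and 7 lower, Sult1a1, Sult1b1, Sult2a8, Sult5a1, Ugt2a3, Ugt2b1 and Ugt3a1 (5.39%). Library 1 gave 0 cycling and 2934 non-cycling cells, so values within libraries are needed here too. For Ugt3a1 the ratio was 1.23 (0.489 to 2.74) in library 2 and 0.616 (0.0736 to 2.28) in library 3. Ugt3a1 had 0 cycling UMIs in library 4, with an interval up to 1.31. Sult5a1 had 2, 5 and 0 cycling UMIs in libraries 2 to 4, and only its library 3 interval (0.125 to 0.912) excludes 1. Sult1a1 had 206 CPM in cycling and 586 CPM in non-cycling cells of library 2, 106 and 253 CPM in library 3, and 328 and 893 CPM in library 4. It was lower in cycling cells of all 3 libraries, with ratios of 0.352, 0.419 and 0.367. Sult1b1 had 8.09 and 13.9 CPM in library 2 and 8.58 and 18.9 CPM in library 4.

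Sult2a3 had 42.2 CPM in cycling and 33.7 CPM in non-cycling cells of library 2, and 42.1 and 6.50 CPM in library 4, so the ratio was 1.26 (1.06 to 1.48) in one and 6.47 (4.61 to 8.93) in the other. Sult2a1 had 45.2 and 41.7 CPM in library 2 and 38.6 and 15.2 CPM in library 4. Sult2a3 was thus higher in cycling cells of both libraries by different amounts, while the interval of the Sult2a1 ratio in library 2 (0.926 to 1.265) includes 1. Sult2a8 had 7.64 and 8.19 CPM in library 2, and 8.58 and 35.2 CPM in library 4. Ugt2b1 was lower in the sum but had a log2 ratio of -0.06 and -0.17 in libraries 3 and 4, and of -0.31 without library 2. The count of higher members was 1 without library 1 or 3, where Sult2a1 had a log2 ratio of 0.95 and 0.88, and 4 without library 2.

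**Figure D5:**
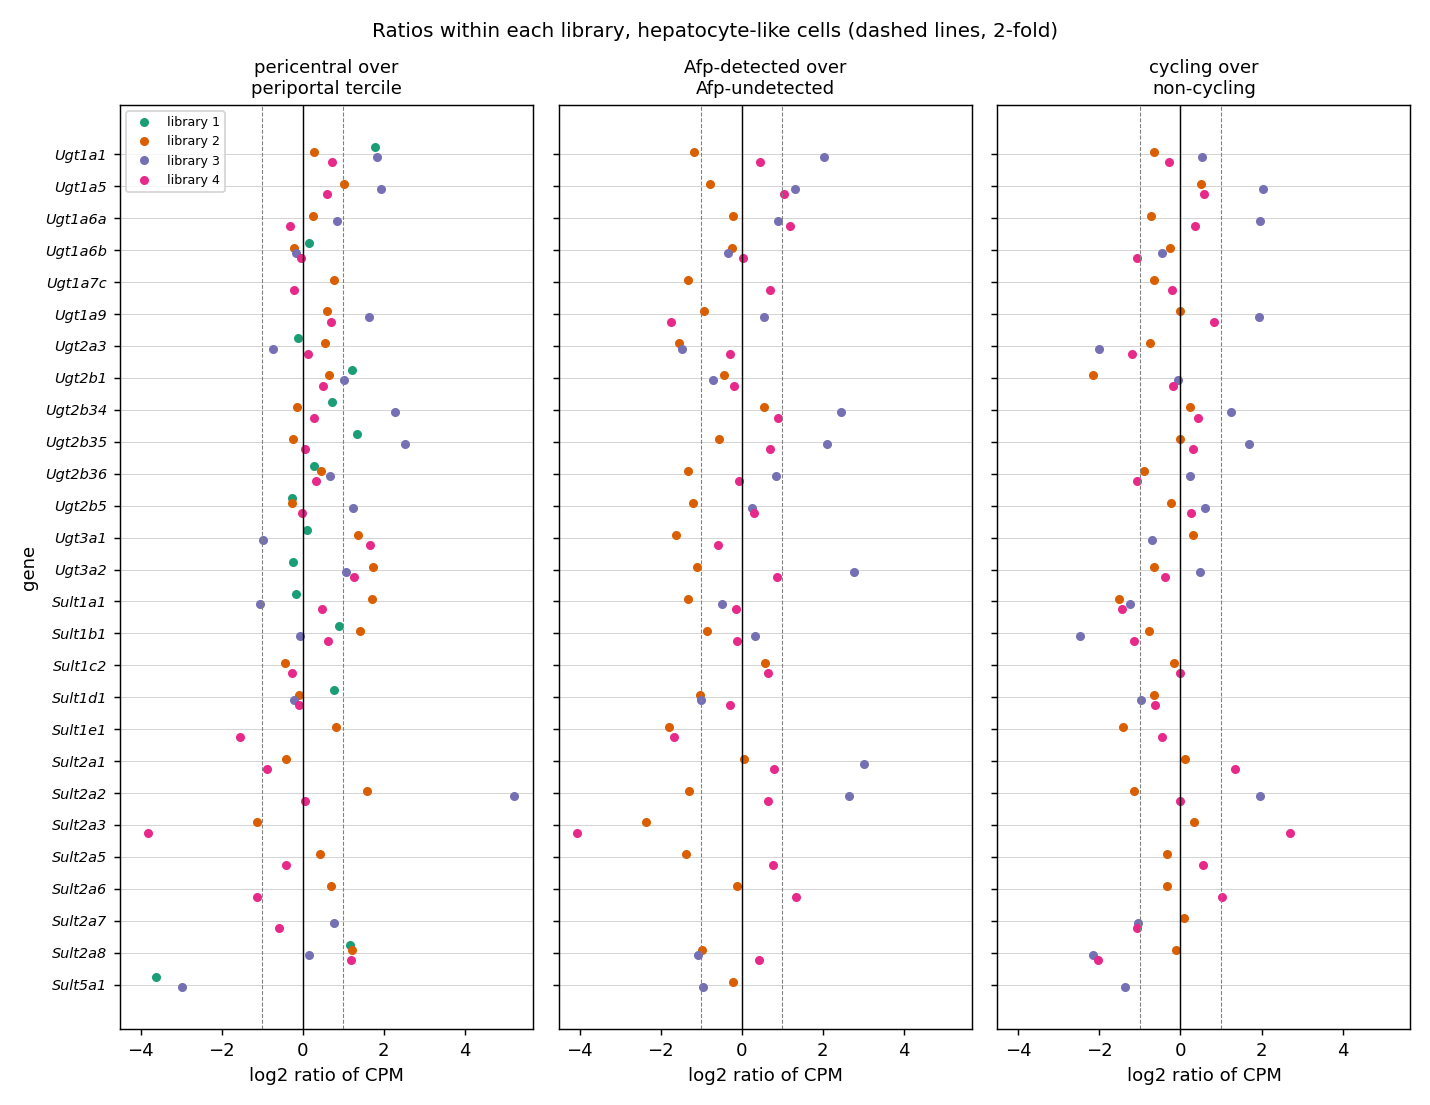
log2 ratio of CPM within each library for the pericentral over the periportal tercile, Afp-detected over Afp-undetected and cycling over non-cycling hepatocyte-like cells; a point needs 20 UMIs, ratios with 0 UMIs on one side are not drawn, and dashed lines mark 2-fold. Sult1a1 lies left of 0 in the cycling panel in all 3 libraries, while Ugt1a1 has points on both sides in the Afp panel.

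Of the 19 genes of the pathway list, 0 were higher and 0 lower in the pericentral tercile (1.45% and 3.51% of all genes). In Afp-detected cells 3 were higher and 0 lower (12.1% and 3.98%), and in cycling cells 4 were higher and 1 lower (19.8% and 5.39%). Gusb, Slc35b2 (a Golgi PAPS transporter) and Impad1 (a Golgi phosphatase of the sulfation by-product PAP) were higher in Afp-detected and in cycling cells, Slc35b3 was also higher in cycling cells, and Ugp2, which makes UDP-glucose, was lower in cycling cells with a log2 ratio of -1.37. Between libraries, 11 of the 19 were past 2-fold in some pair, for which the share of all genes was not computed. Nr1i3 had 48.1, 81.1, 18.1 and 76.3 CPM in hepatocyte-like cells of libraries 1 to 4, and Ugdh had 124, 268, 106 and 286 CPM.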

How the data were processed

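Per the file headers, Cell Ranger 6.0.1 made the matrix, and the authors deposited it as raw UMI counts for each gene in each barcode. The submitters' processing notes name mm9. For the annotation used in counting, no source read here gives a name. Promoter coordinates are those of GRCm38.p6 and are not the build of the counts.

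Barcodes with at least 200 genes, 500 UMIs and under 20% mitochondrial UMIs were kept. Barcodes with a Scrublet score over 0.25 (expected rate 8%) were removed as doublets, 1367 in all. Cells were clustered with scanpy 1.11.5 (2000 variable genes, 30 principal components, 15 neighbours, Leiden resolution 1), leaving out members, pathway genes, and mitochondrial, ribosomal and haemoglobin genes. Clusters were named from marker lists. A difference from other accounts of these cells may come from such rebuilt names.

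Counts were summed per group, with exact Poisson intervals for CPM, exact conditional binomial intervals for ratios and Clopper-Pearson intervals for shares (scipy 1.17.1), all at 95% and for counting error only. A count of 0 was taken to allow 3 UMIs. The call rule was tested on simulated counts. Every member with at least 100 UMIs is named, and other genes come from fixed lists or lead a cluster. The members and lists were chosen with earlier results of these data known. Tumor against normal liver was not computed, because no source used here pairs a barcode suffix with a sample. Alternatives were another scaling, other UMI minima, doublets kept, a stricter cell filter, other resolutions, thinned cells and leaving out libraries. After seeing the data, leaving out clusters 5 and 22 and weighting libraries equally were added.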

Additional observations from a re-analysis of the deposited data

How the results depend on the processing

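No paired analysis was possible because the matrix is 1 pooled sample and its libraries carry no replicate numbers. Of 119 member ratios called above, 112 kept their call under median-of-ratios scaling, 117 with doublets kept, 112 under the stricter cell filter, 117 and 115 at resolutions 0.5 and 2, and 110 without clusters 5 and 22. Of 49 that could be read with libraries weighted equally, 39 did. Thinning cells to 1000 UMIs kept 75 of 115, lost 39 and reversed Sult1e1 between Afp-detected and Afp-undetected cells, with a log2 ratio of 0.34 against -1.05. Thinning holds fewer UMIs, gives each cell equal weight and leaves out shallower cells, and the part of each in these changes was not tested. Under thinning, members led by hepatocyte-like cells were 15 (23 in the text), lower in Afp-detected cells 3 (9) and lower in cycling cells 4 (7). Members past 2-fold between libraries 4 and 1 were 10 (18), and between libraries 4 and 3 they were 7 (14). With no UMI minimum, 15 members passed between libraries 3 and 1 (9) and 10 between libraries 4 and 2 (6). Median-of-ratios scaling left 1 member higher in cycling cells (2). Leaving out 1 library gave 1 to 4 members higher in cycling cells, 1 to 5 higher in the pericentral tercile (3), and 4 to 12 lower in Afp-detected cells. Equal weights gave 4 lower in Afp-detected cells. The cause of the changes in the last 3 sentences was not tested. The highest level in the cluster that holds most cells of cluster 22 was found for 11 Ugt genes, and for 10 and 8 at resolutions 0.5 and 2. Depth limits members under 100 UMIs, and library 1 with its few UMIs per cell.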
